A study of Mus musculus with 6 samples.

Results

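Small nucleolar RNAs and small Cajal body RNAs were examined in haematopoietic stem cells sorted from C57BL/6J mice. The entries were all genes whose symbol in the platform annotation begins with Snord, Snora or Scarna and a number, each read from a probe set that names 1 gene, with the probe set of the highest mean over the arrays where a gene had several. This gave 78 of the 22180 genes measured: 47 C/D box entries (Snord), 26 H/ACA box entries (Snora) and 5 Cajal body entries (Scarna). The rule reads names, and mean signal where a gene had several probe sets, but no measured difference. It was set with earlier results of these data known. The samples were 3 pools of CCR2-positive and 3 pools of CCR2-negative cells, each from the marrow of 20 mice, with 5 ng of total RNA amplified per pool before hybridisation to 1 array. CCR2 is the chemokine receptor for CCL2, and the comparison asks how stem cells that carry it differ from those that lack it. The sources used here do not give the remaining surface markers of the sort, the age or sex of the mice, or whether pools of the 2 groups share animals. The p-values therefore rest on the spread between these pools. The test used (limma) also draws the variance of each gene toward that of all genes. For entries that vary more than most genes, SE, intervals and p are smaller than their own pools alone would give.

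Small nucleolar RNAs guide the chemical modification of other RNAs. C/D box RNAs pair with a target and direct fibrillarin to methylate the ribose at the paired site, and H/ACA box RNAs direct dyskerin to turn uridine into pseudouridine. Most targets lie in ribosomal RNA, while the Cajal body RNAs guide the modification of spliceosomal RNAs. A few members, such as the U8, U17 and U22 RNAs, take part in cutting the ribosomal precursor instead. In mammals most of these RNAs are cut from introns of host genes, many of which encode ribosomal proteins or factors of ribosome assembly. Signal on such a probe set can come from the mature small RNA or from the host intron that holds it, and the arrays cannot tell these apart.

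The RefSeq table used here for sequences holds none for the entries themselves. For 2 H/ACA entries, miRNA hairpins overlap the annotated span and give the shared bases (GRCm38.p6, minus strand). The hairpin of Mir3084-2 at chr19:60774329-60774397 holds the whole annotated span of Snora19, 56 bases, and that of Mir1291 at chr15:98519762-98519878 holds 73 of the 118 bases of Snora34. Capitals mark the bases that belong to the H/ACA entry, read 5′ to 3′.
Mir3084-2 with Snora19: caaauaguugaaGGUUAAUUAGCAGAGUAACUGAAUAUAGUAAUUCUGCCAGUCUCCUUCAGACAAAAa
Mir1291 with Snora34: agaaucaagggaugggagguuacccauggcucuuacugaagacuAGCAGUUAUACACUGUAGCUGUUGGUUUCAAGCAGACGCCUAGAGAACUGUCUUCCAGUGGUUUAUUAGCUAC
The gene table gives no strand, so the span of Snora19 was read on the strand of the hairpin. Read so, it ends with ACA followed by 3 bases, the place where the ACA box of this family lies. The same letters at that distance from the 3′ end occur in 16 of all 1005 mouse hairpins in the table (1.59%, read on the given strand). That count reads the ends of whole hairpins, whereas the span of Snora19 ends inside its hairpin, so the share is only a rough background. Mature miR-3084-3p lies wholly inside Snora19, while mature miR-1291 reaches only partly into Snora34. Snora34 was among the entries with the largest differences described below.

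Host genes were identified as the shortest gene whose annotated span holds the entry. Strand was not used, because the gene table gives none. Of the 78 entries 74 lay inside such a gene, in 60 different hosts. Many host transcripts are known to begin with a run of pyrimidines that ties their translation to growth signals. As examples, the start windows of 6 hosts of entries named below are shown: Gas5, Snhg1, Snhg3, Snhg12, 2410006H16Rik and Rpl13a. No result below rests on these windows. Each window runs from 20 bases before to 50 bases after an annotated start (RefSeq, GRCm38.p6), and capitals mark CTTTC. Gas5 has a further annotated start at chr1:161034581-161034650, whose window holds no CTTTC.
Gas5, plus strand, chr1:161035146-161035215: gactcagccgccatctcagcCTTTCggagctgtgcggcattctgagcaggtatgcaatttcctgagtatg
Snhg12, plus strand, chr4:132308658-132308727: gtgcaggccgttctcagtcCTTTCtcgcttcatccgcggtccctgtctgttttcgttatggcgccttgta
2410006H16Rik, plus strand, chr11:62602857-62602926: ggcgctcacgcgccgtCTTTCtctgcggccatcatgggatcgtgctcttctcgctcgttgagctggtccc
Rpl13a, minus strand, chr7:45128696-45128765: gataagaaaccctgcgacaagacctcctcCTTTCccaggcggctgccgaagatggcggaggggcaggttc
Snhg1, plus strand, chr19:8723467-8723536: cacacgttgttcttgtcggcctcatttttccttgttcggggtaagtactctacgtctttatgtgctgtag
Snhg3, minus strand, chr4:132353637-132353706: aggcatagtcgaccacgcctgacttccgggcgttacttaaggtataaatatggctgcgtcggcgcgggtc
The letters CTTTC were chosen after several windows had been read, so the counts that follow are a description and no test of hosts. The windows shown do not give the share of hosts with these letters. They stood in the sense direction in 13 of 46 host genes with a window (28.3%), against 2790 of 26979 other genes (10.3%). In the antisense direction they stood in 1 of 46 host genes (2.2%), against 2754 of 26979 other genes (10.2%). These are counts of letters, not of sites in use.

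The sort and the cell type were checked on the arrays. Ccr2, which defines the sort, differed by 0.79 ± 0.24 (SE, log2) with an adjusted limma p of 0.274. Of the markers fixed for stem cells, 8 of 10 were measured and all 8 had lower means in CCR2-positive pools, with list means of 7.16 to 7.53 in CCR2-positive and 7.78 to 8.09 in CCR2-negative pools. All 7 measured erythroid markers had higher means, with list means of 8.25 to 8.85 in CCR2-positive and 7.42 to 7.99 in CCR2-negative pools, and so had all 7 monocyte markers (7.14 to 7.42 in CCR2-positive and 6.83 to 6.88 in CCR2-negative pools) and all 7 neutrophil markers (5.64 to 6.80 in CCR2-positive and 5.22 to 6.00 in CCR2-negative pools). The list means of 4 B cell markers were 5.81 to 6.08 in CCR2-positive and 5.77 to 5.90 in CCR2-negative pools, and those of 3 T cell markers were 4.41 to 4.74 in CCR2-positive and 4.39 to 4.49 in CCR2-negative pools. In such pools a change in the share of a cell type and a change of RNA per cell cannot be told apart, and the part of these markers in the results below was not tested. CCR2-positive replicate 3 correlated with the other arrays at r = 0.960 to 0.970, against 0.968 to 0.983 among the others (over all probe sets, a description with no p), and values without it, or without another single pool, stand beside many of the differences below. Values are log2 values from RMA, a method that corrects background, equalises arrays and summarises the probes of a set. Probe sets bind with different strength, so an order of values between entries is not an order of abundance. Differences are CCR2-positive minus CCR2-negative.

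The small nucleolar RNAs stood out from all genes by their spread between pools. The median SD between pools of the same group was 0.48 on the log2 scale for the 78 entries, 3.11 times the median of 0.156 over all genes. It was 0.51 for C/D box entries, 0.45 for H/ACA box entries and 0.47 for the 5 Cajal body entries. In all, 70 of 78 entries lay above the median SD of all genes and 61 lay in the top 10%. Of the 50 genes with the largest SD on the arrays, 16 were small nucleolar or Cajal body RNAs. The trait was not particular to them: 10 other small non-coding RNAs, described below, had a median SD of 0.47, with 7 in the top 10%. These are descriptions with no test, since the entries of 1 array share a pool.

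**Figure D1:**
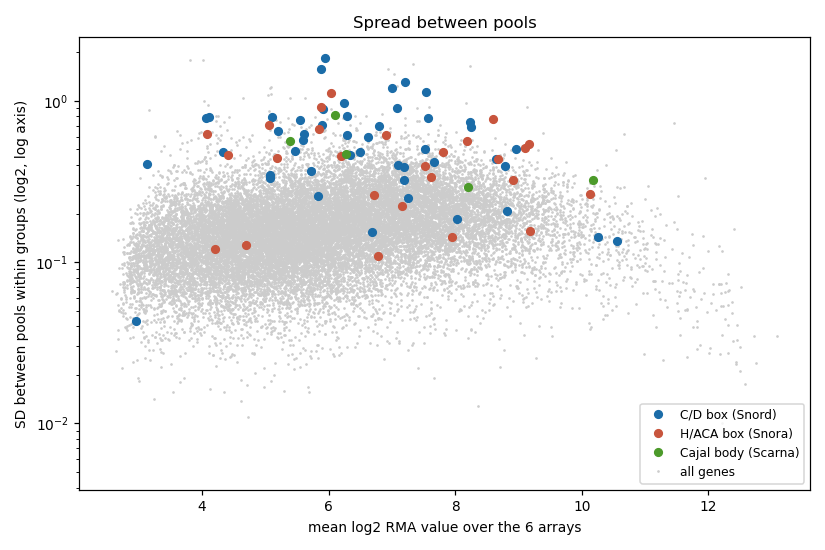
Each point is 1 gene, with its mean log2 RMA value over the 6 arrays on the x axis and its SD between pools within groups on the y axis (log axis). C/D box entries are blue, H/ACA box entries red, Cajal body entries green and all genes grey; 61 of the 78 coloured points lie in the top 10% by SD.

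The spread was wide at every level of signal. With all genes split by mean level into 4 bins of equal size, the median SD was 0.471 for 8 entries in the lowest bin, against 0.123 for all genes there. In the next bin it was 0.564 for 13 entries and 0.144 for all genes, and in the bin above 0.667 for 25 entries and 0.175 for all genes. In the highest bin it was 0.394 for 32 entries and 0.189 for all genes. Across the 78 entries the SD was nearly unrelated to annotated length, which ran from 48 to 248 bases (Pearson r = -0.056, Spearman rho = -0.107), and only weakly related to mean value (r = -0.187, rho = -0.231). These correlations share the same arrays and carry no p.

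The widest entry was Snord61, a C/D box RNA inside the splicing regulator gene Rbmx, which had the largest SD of all 22180 genes. Its values were 5.24, 5.19 and 6.49 in CCR2-positive replicates 1 to 3, against 4.05, 8.98 and 5.73 in CCR2-negative replicates 1 to 3. CCR2-negative replicate 2 alone was far above the other pools, and the groups overlapped. Snord58b, inside the ribosomal protein gene Rpl17, had 7.28, 5.13 and 4.83 in CCR2-positive and 5.15, 8.07 and 4.86 in CCR2-negative pools. Here CCR2-positive replicate 1 and CCR2-negative replicate 2 were high and the other 4 pools lay close together. Snora69, an H/ACA RNA inside the ribosomal protein gene Rpl39, had 7.29, 4.51 and 5.71 in CCR2-positive and 6.09, 7.08 and 5.59 in CCR2-negative pools. Its highest and its lowest pool were both CCR2-positive. The groups overlapped for all 3, and the differences of -0.61 ± 1.04 for Snord61, -0.28 ± 0.89 for Snord58b and -0.41 ± 0.64 for Snora69 (SE) were smaller than their errors. Among the other wide entries, Snora7a had 8.03, 9.35 and 7.94 in CCR2-positive and 8.20, 9.61 and 8.43 in CCR2-negative pools, highest in replicate 2 of either group.

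A few entries were as steady as ordinary genes. Snord104, an entry with high signal, had 10.45, 10.38 and 10.50 in CCR2-positive and 10.78, 10.78 and 10.46 in CCR2-negative pools, an SD of 0.136. Snord8 had 10.24, 10.35 and 10.32 in CCR2-positive and 10.17, 10.03 and 10.41 in CCR2-negative pools, an SD of 0.143. Snora35, which lies in the serotonin receptor gene Htr2c and is known as a brain RNA, had 4.86, 4.78 and 4.65 in CCR2-positive and 4.55, 4.51 and 4.78 in CCR2-negative pools, with an SD of 0.128. Snord90 had the lowest mean of all entries, with 2.88 to 2.97 in CCR2-positive and 2.95 to 3.03 in CCR2-negative pools. Its SD of 0.043 was the smallest of the 78. Low signal did not always go with low spread: Snord37, inside the elongation factor gene Eef2, had 3.31, 3.55 and 4.51 in CCR2-positive and 3.33, 5.04 and 4.63 in CCR2-negative pools. Detection calls were not among the values used here, so whether such low values exceed background is unknown.

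For 3 entries a second probe set allowed a comparison within the same arrays. For Snora33, inside Rps12, the probe set used had 10.04, 10.33 and 9.93 in CCR2-positive and 9.97, 10.50 and 9.96 in CCR2-negative pools. The other had 8.86, 8.96 and 7.59 in CCR2-positive and 8.07, 9.55 and 8.59 in CCR2-negative pools. On both, CCR2-negative replicate 2 was highest and CCR2-positive replicate 3 lowest. For Scarna17 the probe set used had 10.15, 10.27 and 9.93 in CCR2-positive and 10.69, 9.85 and 10.22 in CCR2-negative pools, and the other had 9.06, 9.22 and 8.75 in CCR2-positive and 9.72, 8.65 and 9.15 in CCR2-negative pools. CCR2-negative replicate 1 was highest and CCR2-negative replicate 2 lowest on both. The 2 probe sets of Snora19 held identical values on all 6 arrays and count as 1 measurement.

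No small nucleolar or Cajal body RNA passed the comparison of CCR2-positive with CCR2-negative pools. In limma, fitted on all 22180 genes with Benjamini-Hochberg adjustment, 0 of 78 entries had an adjusted p under 0.05, and 0.00% of all genes did. The smallest adjusted p of an entry was 0.183. An unadjusted p under 0.05 was reached by 11 of 78 entries (14.1%), against 12.2% of all genes. Of these, 6 had higher means in CCR2-positive pools (5.63% of all genes) and 5 had lower ones (6.61% of all genes). The pools of both groups did not overlap for 9 of 78 entries (11.5%), against 18.6% of all genes. Of these, 5 lay wholly higher in CCR2-positive pools (10.8% of all genes) and 4 wholly lower (7.88% of all genes). The sizes of the differences were large beside those of all genes: 20 of 78 entries (25.6%) differed by 0.5 or more on the log2 scale, against 3.73% of all genes. Across the 78 entries the size of the difference rose with the SD between pools (Pearson r = 0.437, Spearman rho = 0.483, a description with no p). The part of this spread in the sizes was not tested. The median 95% interval of an entry reached 0.65 to either side of its difference, against 0.29 for all genes. At that width, the interval around an observed 1.5-fold difference would include no difference. How often a true difference of that size would be called was not computed. These intervals use the moderated variance, and the pools of a typical entry alone would give wider ones.

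**Figure D2:**
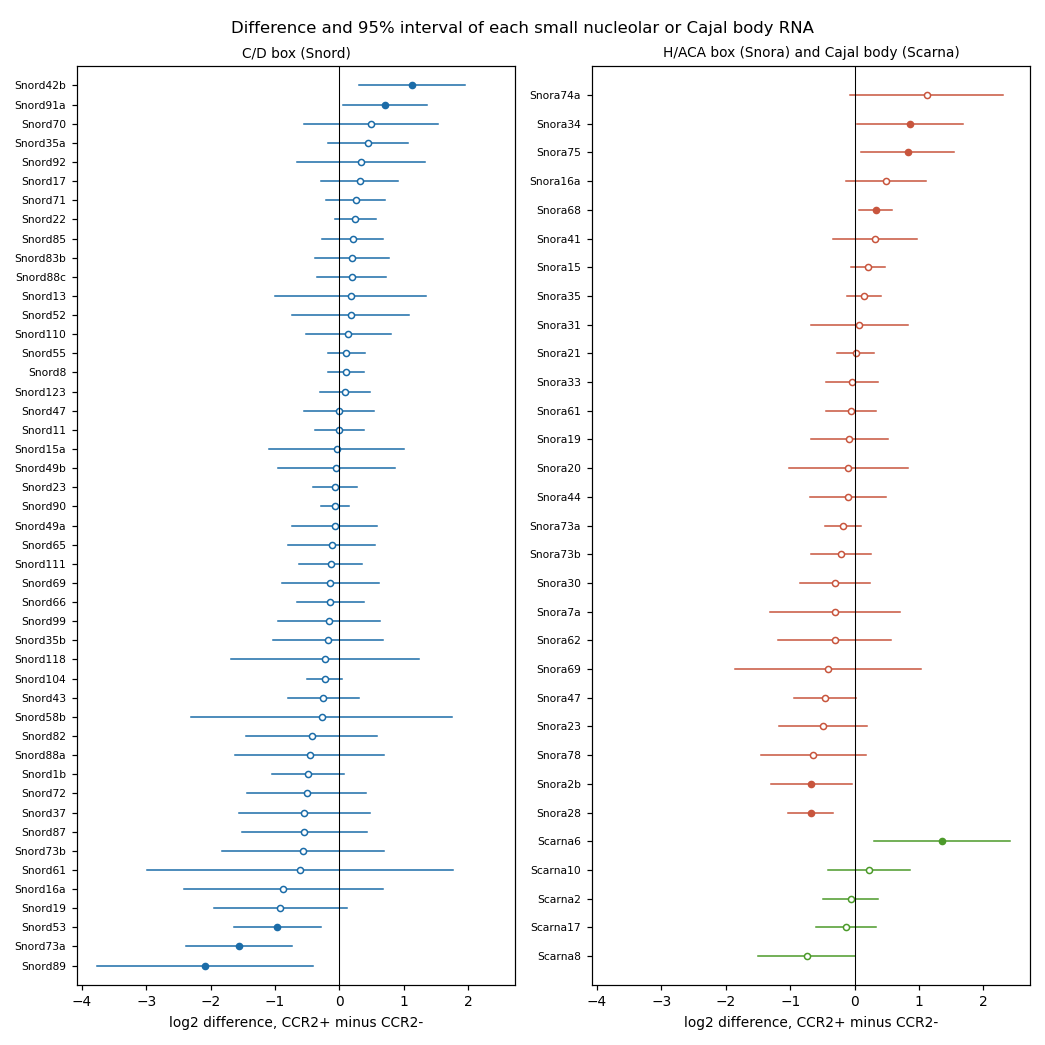
Log2 difference (CCR2-positive minus CCR2-negative, points) and its 95% limma interval (lines) for all 78 entries, with C/D box entries left and H/ACA and Cajal body entries right. Filled points had an unadjusted p under 0.05, which 11 of 78 entries did and none with adjustment.

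As classes, the C/D box and H/ACA box entries lay close to no difference. Of 47 C/D box entries 30 had lower means in CCR2-positive pools, with a median difference of -0.08 and a range of -2.09 to 1.13. Of 26 H/ACA box entries 16 had lower means, with a median of -0.09 and a range of -0.68 to 1.12. Of 5 Cajal body entries 3 had lower means, with a median of -0.06. Together this was 49 of 78 (62.8%), against 44.0% of all genes, whose median difference was 0.03. The 11 entries with the smallest p-values divide into 5 of the C/D box class (2 higher and 3 lower), 5 of the H/ACA box class (3 higher and 2 lower) and 1 Cajal body entry (higher). The lean to lower means rested on single pools. Without CCR2-positive replicate 3 the count was 36 of 78 (46.2%), and the medians were 0.08 for C/D box and 0.05 for H/ACA box entries. Without CCR2-negative replicate 2 the count was 38 of 78 (48.7%), with medians of 0.01 and 0.03 for the same classes.

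CCR2-positive replicate 3 was the lowest of the 6 pools for 28 of 78 entries (35.9%), against 19.7% of all genes. This was concentrated in the C/D box class, where it was lowest for 22 of 47 entries (46.8%), against 5 of 26 H/ACA box entries (19.2%). The median deviation of this pool from an entry's mean over all pools was -0.15 for C/D box and -0.19 for H/ACA box entries, and 0.01 for all genes. It was highest for 8 of 78 entries (10.3%), but for 24.9% of all genes. CCR2-negative replicate 1 was the lowest pool for 9 of 26 H/ACA box entries (34.6%) and for 3 of 47 C/D box entries (6.4%), against 17.9% of all genes. The difference between the classes was not tested.

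**Figure D3:**
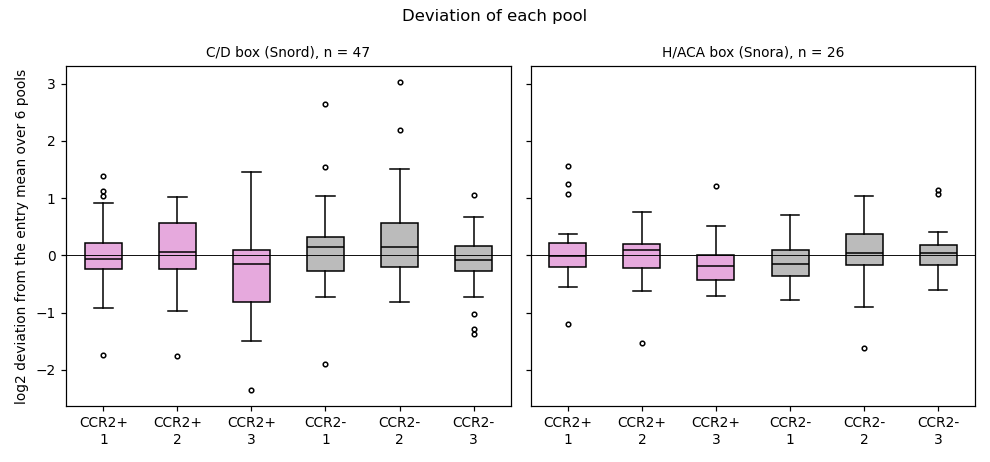
Box plots of the log2 deviation of each pool from an entry's mean over the 6 pools, for 47 C/D box entries (left) and 26 H/ACA box entries (right), with CCR2-positive pools in pink and CCR2-negative pools in grey. Boxes span the quartiles with the median as a line, whiskers reach the farthest point within 1.5 box lengths, and circles lie beyond; CCR2-positive replicate 3 has the lowest median in both panels.

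Among C/D box RNAs, Snord89 had the most negative difference of all 22180 genes. Snord89 also had a wide spread between pools, with an SD that ranked 9 from the largest of all genes. It had 5.46, 5.44 and 7.56 in CCR2-positive pools, against 9.84, 7.39 and 7.50 in CCR2-negative pools. CCR2-positive replicates 1 and 2 were low and CCR2-negative replicate 1 was high, while CCR2-positive replicate 3 lay just above the other CCR2-negative pools and so made the groups overlap. The difference was -2.09 ± 0.74 (SE, 95% interval -3.77 to -0.41, limma adjusted p = 0.32), a 4.25-fold lower mean. It was -2.79 without CCR2-positive replicate 3 and -1.29 without CCR2-negative replicate 1.

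Snord73a, inside Rps3a1, a gene for a protein of the small ribosomal subunit, had 4.76, 5.51 and 4.23 in CCR2-positive and 6.43, 6.99 and 5.78 in CCR2-negative pools. All CCR2-positive pools lay below all CCR2-negative pools. The difference was -1.56 ± 0.36 (SE, adjusted p = 0.187 in limma), a 2.95-fold lower mean, and stayed between -1.90 and -1.26 when any 1 pool was left out. Its neighbour Snord73b, cut from the same host, had 6.20, 6.95 and 4.75 in CCR2-positive and 6.56, 5.72 and 7.30 in CCR2-negative pools, and its groups overlapped. The host transcript of Rps3a1 itself had 11.94, 11.76 and 11.83 in CCR2-positive and 11.80, 11.82 and 11.96 in CCR2-negative pools, with overlapping groups.

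Snord53, inside Wdr43, a gene of ribosome assembly, had 7.31, 7.48 and 6.36 in CCR2-positive and 7.81, 8.45 and 7.79 in CCR2-negative pools. The groups did not overlap, with a difference of -0.97 ± 0.30 (SE, adjusted p = 0.274 in limma). It was -0.62 without CCR2-positive replicate 3, the lowest pool. Snord92 lies in the same host and had 6.59, 5.96 and 4.61 in CCR2-positive and 5.79, 5.19 and 5.17 in CCR2-negative pools, the opposite order of means. Snord19, inside the nucleostemin gene Gnl3, differed by -0.92 ± 0.45 and Snord1b by -0.49 ± 0.24, both with overlapping groups. Single pools moved both: Snord19 was -0.52 without CCR2-positive replicate 3 and -1.55 without CCR2-positive replicate 2, and Snord1b was -0.19 without CCR2-negative replicate 2 and -0.74 without CCR2-negative replicate 3.

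In the other direction, Snord42b, inside Rpl23a, had 6.82, 7.32 and 6.43 in CCR2-positive and 5.85, 6.41 and 4.92 in CCR2-negative pools. The groups met at CCR2-positive replicate 3 and CCR2-negative replicate 2, which differed by little, and did not overlap. The difference was 1.13 ± 0.36 (SE, adjusted p = 0.281 in limma), a 2.18-fold higher mean, and was 0.72 without CCR2-negative replicate 3, the lowest pool. Snord91a, inside Tsr1, another gene of ribosome assembly, had 5.46, 4.22 and 4.41 in CCR2-positive and 3.98, 3.85 and 4.12 in CCR2-negative pools. Its difference of 0.71 ± 0.29 (SE, adjusted p = 0.37 in limma) was 0.33 without CCR2-positive replicate 1, the only pool that stood well above the others. Snord17 and Snord71 differed by 0.32 ± 0.26 and 0.25 ± 0.20, with overlapping groups. Snord17 was 0.0204 without CCR2-positive replicate 2, and Snord71 was -0.0037 without CCR2-positive replicate 3.

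**Figure D4:**
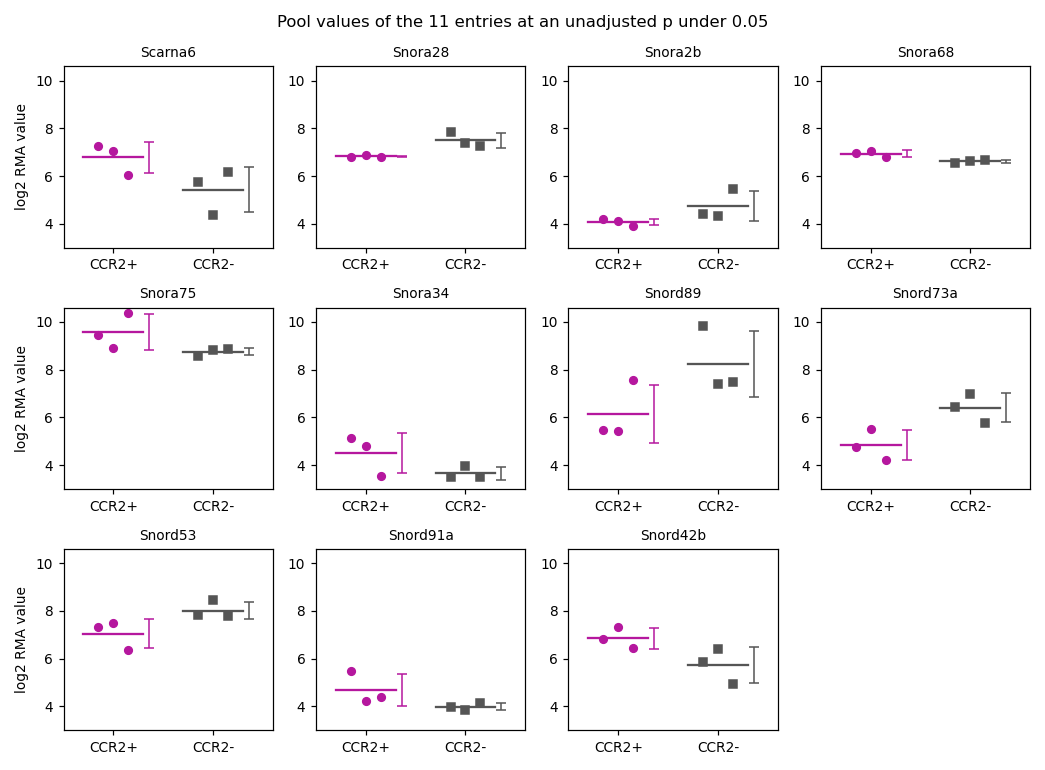
Log2 RMA values of the 11 entries at an unadjusted p under 0.05, with CCR2-positive pools as circles and CCR2-negative pools as squares, replicates 1 to 3 from left to right. Horizontal lines are group means and vertical bars the SD (n = 3); the groups overlap for Scarna6, Snora34 and Snord89.

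Among H/ACA box RNAs, Snora28 had the smallest p of any entry. It lies inside Eif5, a translation initiation factor gene, and had 6.79, 6.87 and 6.81 in CCR2-positive pools, against 7.85, 7.41 and 7.25 in CCR2-negative pools. The CCR2-positive pools were nearly equal and all lay below the CCR2-negative pools. The difference was -0.68 ± 0.15 (SE, 95% interval -1.03 to -0.33, limma adjusted p = 0.183), a 1.60-fold lower mean. It stayed between -0.81 and -0.51 when any 1 pool was left out. Eif5 itself had 8.66, 8.99 and 8.58 in CCR2-positive and 8.61, 8.94 and 8.97 in CCR2-negative pools, which overlapped.

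Snora68 had 6.96, 7.06 and 6.79 in CCR2-positive and 6.54, 6.62 and 6.67 in CCR2-negative pools. The shift was small but the groups did not overlap, with a difference of 0.33 ± 0.11 (SE, adjusted p = 0.305 in limma). Snora75, inside the nucleolin gene Ncl, had 9.46, 8.91 and 10.39 in CCR2-positive and 8.59, 8.84 and 8.85 in CCR2-negative pools. CCR2-positive replicate 2 lay just above the CCR2-negative pools and replicate 3 far above them. The difference of 0.83 ± 0.32 (SE, adjusted p = 0.351 in limma) was 0.43 without CCR2-positive replicate 3.

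Kansl2, which encodes a subunit of a histone acetyltransferase complex, holds 2 entries that went opposite ways. Snora34, part of whose sequence is shown above, had 5.14, 4.81 and 3.55 in CCR2-positive and 3.48, 3.95 and 3.50 in CCR2-negative pools. The groups overlapped at CCR2-positive replicate 3. Its difference was 0.86 ± 0.36 (SE, adjusted p = 0.388 in limma). It was 1.33 without that pool and 0.54 without CCR2-positive replicate 1. Snora2b had 4.19, 4.10 and 3.92 in CCR2-positive and 4.43, 4.32 and 5.47 in CCR2-negative pools, a difference of -0.67 ± 0.27 (SE, adjusted p = 0.377 in limma) that was -0.30 without CCR2-negative replicate 3. Snora74a, inside Snhg4, differed by 1.12 ± 0.52 and Snora47 by -0.46 ± 0.21, both with overlapping groups. Leaving out CCR2-negative replicate 2 gave 0.59 for Snora74a and leaving out CCR2-positive replicate 1 gave 0.62, and Snora47 was -0.22 without CCR2-positive replicate 3. Snora78 and Snora23 differed by -0.64 ± 0.36 and -0.49 ± 0.30, also with overlap. Snora78 was -0.21 without CCR2-positive replicate 1 and -1.06 without CCR2-positive replicate 3, and Snora23 ran from -0.80 to -0.27 with 1 pool left out, lowest in size without CCR2-negative replicate 1. Snora15 had 4.32, 4.29 and 4.31 in CCR2-positive and 3.94, 4.06 and 4.28 in CCR2-negative pools, a difference of 0.21 ± 0.11 without overlap that was 0.13 without CCR2-negative replicate 1.

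Of the Cajal body RNAs, Scarna6 had 7.25, 7.07 and 6.03 in CCR2-positive and 5.75, 4.37 and 6.15 in CCR2-negative pools. CCR2-negative replicate 2 was far below the rest, and the groups overlapped. The difference was 1.36 ± 0.46 (SE, 95% interval 0.30 to 2.42, limma adjusted p = 0.306), a 2.57-fold higher mean, and 0.83 without CCR2-negative replicate 2. Scarna8, inside Haus6, had 5.15, 5.47 and 4.46 in CCR2-positive and 6.45, 5.58 and 5.28 in CCR2-negative pools, a difference of -0.74 ± 0.33. Leaving out CCR2-negative replicate 1 gave -0.40 and leaving out CCR2-positive replicate 3 gave -0.46. Scarna10 differed by 0.22 ± 0.28, Scarna17 by -0.14 ± 0.20 and Scarna2 by -0.06 ± 0.19, all with overlapping groups and all changing sign when single pools were left out. Scarna2 had 8.16, 8.16 and 8.18 in CCR2-positive and 8.64, 7.82 and 8.22 in CCR2-negative pools, with nearly equal CCR2-positive values.

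The RNAs that take part in cutting the ribosomal precursor were not called either. Snord118, the U8 RNA, which is needed for the large subunit RNA and has no host gene here, had 7.73, 8.23 and 6.31 in CCR2-positive and 9.07, 6.73 and 7.13 in CCR2-negative pools, a wide and overlapping spread. Snord22, the U22 RNA needed for the small subunit RNA, had 8.24, 8.16 and 8.04 in CCR2-positive and 7.64, 8.12 and 7.95 in CCR2-negative pools, a difference of 0.24 ± 0.14 that was 0.11 without CCR2-negative replicate 1. The U17 RNAs Snora73a and Snora73b, also needed for the small subunit RNA, differed by -0.18 ± 0.12 and -0.21 ± 0.20. Snora73a had 7.78, 7.98 and 7.83 in CCR2-positive and 7.92, 8.24 and 7.96 in CCR2-negative pools. Snora73b had 8.65, 9.04 and 8.73 in CCR2-positive and 8.74, 9.48 and 8.83 in CCR2-negative pools. Both were highest in replicate 2 of either group, and without CCR2-negative replicate 2 the differences were -0.0793 for Snora73a and 0.0232 for Snora73b. Snord13, which in human cells guides acetylation of the small subunit RNA, had 6.71, 7.99 and 6.80 in CCR2-positive and 7.43, 7.77 and 5.79 in CCR2-negative pools.

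U3, the most abundant C/D box RNA of nucleoli, carries the symbol Rnu3a in the annotation and so falls outside the 78. It had 11.84, 12.01 and 12.57 in CCR2-positive pools, against 11.89, 10.25 and 10.22 in CCR2-negative pools. CCR2-negative replicate 1 lay among the CCR2-positive pools and the other CCR2-negative pools far below. The difference was 1.35 ± 0.42 (SE, adjusted p = 0.274 in limma). Terc, the telomerase RNA, which ends in an H/ACA domain, had 8.48, 7.93 and 8.82 in CCR2-positive and 9.63, 8.47 and 8.40 in CCR2-negative pools, a difference of -0.42 ± 0.34 that was -0.0242 without CCR2-negative replicate 1, the highest pool. Rnu11, an RNA of the minor spliceosome, had 9.34, 9.52 and 9.51 in CCR2-positive and 10.03, 9.83 and 9.88 in CCR2-negative pools. Its groups did not overlap and its spread was small, with a difference of -0.46 ± 0.11 (SE, adjusted p = 0.19 in limma). The 10 other small non-coding RNAs on the list had a median SD of 0.47, like that of the small nucleolar RNAs, from 0.070 for Rn7sk, the 7SK regulator of transcription elongation, to 1.46 for the Y RNA Rny3. Of these 10, 2 had an unadjusted p under 0.05, against 12.2% of all genes, and 0 an adjusted one.

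Several hosts hold more than 1 entry. The non-coding host 2410006H16Rik holds 3 entries. Snord65 had 8.72, 9.55 and 8.42 in CCR2-positive and 9.08, 9.41 and 8.58 in CCR2-negative pools, and Snord49a had 6.51, 7.09 and 5.76 in CCR2-positive and 6.37, 6.71 and 6.51 in CCR2-negative pools. Both were highest in replicate 2 of either group and lowest overall in CCR2-positive replicate 3. Snord49b had 7.85, 7.73 and 9.12 in CCR2-positive and 8.91, 7.74 and 8.18 in CCR2-negative pools, so that CCR2-positive replicate 3 was its highest pool. Snhg12 holds 4 entries, with differences of 0.48 ± 0.27 for Snora16a, -0.06 ± 0.17 for Snora61, -0.10 ± 0.26 for Snora44 and -0.17 ± 0.35 for Snord99. Snora16a was 0.24 without CCR2-positive replicate 2 and 0.80 without CCR2-positive replicate 1, and the other 3 changed sign when single pools were left out. Over all hosts with several entries there were 18 pairs, of which 9 had differences of the same sign.

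Snord47, from the growth-arrest transcript Gas5, had 8.73, 9.35 and 8.29 in CCR2-positive and 8.69, 8.72 and 8.97 in CCR2-negative pools, with equal group means of 8.79. Snord35a, from Rpl13a, had 6.09, 6.41 and 7.20 in CCR2-positive and 5.96, 6.49 and 5.92 in CCR2-negative pools, a difference of 0.44 ± 0.27 that was 0.13 without CCR2-positive replicate 3, the highest pool. Snord87, from Snhg6, had 8.14, 8.87 and 6.88 in CCR2-positive and 8.47, 8.83 and 8.24 in CCR2-negative pools. Its difference of -0.55 ± 0.43 was -0.01 without CCR2-positive replicate 3, the single low pool, and -1.001 without CCR2-positive replicate 2.

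The host genes were far steadier than the RNAs they hold. For 60 entries the host had a probe set of its own, in 46 hosts, whose median SD of 0.149 was close to the 0.156 of all genes. The SD of the entry exceeded that of its host in 56 of 60 cases, and the size of its difference did in 51 of 60. Of the 46 hosts 0 passed an adjusted p of 0.05 in limma and 4 had an unadjusted p under 0.05 (8.7%), against 12.2% of all genes. All 4 had lower means in CCR2-positive pools: Rbmx by -0.42 ± 0.11, Rc3h2, a gene of mRNA decay, by -0.42 ± 0.13, Rpl37 by -0.37 ± 0.15 and Zbed3 by -0.34 ± 0.11 (SE). Rpl37 was -0.23 without CCR2-positive replicate 3. Rbmx had 7.73, 7.81 and 7.60 in CCR2-positive and 8.19, 8.18 and 8.04 in CCR2-negative pools, with no sign of the single high pool of its entry Snord61. Across the 60 entries the differences of entry and host correlated at r = 0.194 (rho = 0.202), a description with no p, since entries share hosts and arrays. The signs were the same for 39 of 60.

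**Figure D5:**
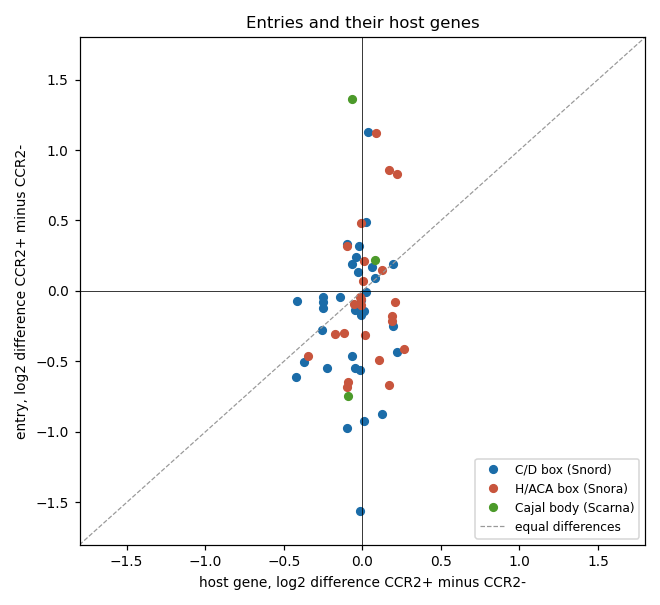
Log2 difference (CCR2-positive minus CCR2-negative) of the host gene on the x axis and of the entry on the y axis, for the 60 entries whose host was measured (C/D box blue, H/ACA box red, Cajal body green). The dashed line marks equal differences; the points spread along the y axis, and 51 of 60 entries differed by more than their host.

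Host transcripts named for small nucleolar RNAs lay near no difference in most cases. Snhg1, the host of Snord22, had 10.25, 10.37 and 10.03 in CCR2-positive and 10.10, 10.49 and 10.17 in CCR2-negative pools. Snhg12 had 8.84, 8.66 and 8.42 in CCR2-positive and 8.38, 8.99 and 8.59 in CCR2-negative pools. Snhg20 was the exception in size, with 8.70, 8.35 and 8.72 in CCR2-positive and 9.10, 9.46 and 8.77 in CCR2-negative pools. Its difference was -0.52 ± 0.18 (SE, adjusted p = 0.323 in limma), without overlap, and was -0.34 without CCR2-negative replicate 2.

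The proteins that carry and assemble these RNAs were measured from a list of 34 genes. Of them 0 passed an adjusted p of 0.05 in limma, and 1 had an unadjusted p under 0.05 (2.9%), against 12.2% of all genes. Their median difference was 0.04, with 21 higher and 13 lower means, and their median SD was 0.191. That 1 gene was Shq1, whose product shields dyskerin before it joins an H/ACA particle. It had 5.83, 6.25 and 5.26 in CCR2-positive and 6.75, 6.53 and 6.33 in CCR2-negative pools, without overlap, a difference of -0.75 ± 0.23 (SE, adjusted p = 0.274 in limma). Shq1 differed by -0.50 without CCR2-positive replicate 3. Without that pool the count at an unadjusted p under 0.05 was 5 of 34, against 11.2% of all genes.

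On the probe sets used, genes of the core proteins of the C/D particle had differences near their errors or below. Nop56, Nop58 and Snu13, which form its scaffold, differed by -0.03 ± 0.14, 0.02 ± 0.11 and 0.13 ± 0.13 (SE). The value of Nop56 depended on the probe set: it was -0.35 when probe sets were averaged per gene (adjusted p = 0.64 in limma). Snu13 was 0.06 and Nop58 stayed at 0.02 with that averaging. Of the H/ACA core, Dkc1, the pseudouridine synthase dyskerin, had 9.13, 9.24 and 9.04 in CCR2-positive and 8.72, 9.08 and 8.91 in CCR2-negative pools, a difference of 0.23 ± 0.12 with overlap. Gar1 differed by 0.13 ± 0.13, Nhp2 by 0.02 ± 0.12 and Nop10 by -0.09 ± 0.11. Among Cajal body and nucleolar genes, Coil, the scaffold of Cajal bodies, differed by 0.07 ± 0.13, Wrap53, which brings these RNAs to the bodies, by -0.08 ± 0.18 and Gemin2, a partner of SMN, by -0.34 ± 0.19. Rrp9, a protein of the U3 particle, differed by 0.31 ± 0.21 and the nucleolar protein genes Ncl and Npm1 by 0.22 ± 0.12 and 0.10 ± 0.11.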

How the data were processed

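The authors deposited 1 table of log2 values for 41345 probe sets on 6 arrays, made with RMA per the submitters' processing notes. Neither version nor settings of RMA appear in these sources. RMA equalises the arrays, so differences are relative to other genes of the array. No column belonged to another sample. Depth has no meaning here: the number of arrays limits precision. Names came from the platform annotation. Of its probe sets, 81 named 1 such entry and 46 named an entry among several genes and were left out, 16 of them for Snord116 copies. RefSeq (GRCm38.p6) lists 142 entries under the rule; all 78 measured ones were matched by gene number, and 64 had no probe set of their own.

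The comparison used limma 3.58.1 in R 4.3.3 (lmFit, eBayes, no covariate) on 22180 genes with Benjamini-Hochberg adjustment and a threshold of 0.05. Its code was also run on simulated data with known changes in randomly drawn genes, which does not show how well changes of these entries are detected. The SD between pools is pooled over both groups and is not moderated, whereas SE, intervals and p use the variance moderated by eBayes. Named entries were, per class, those with the smallest p in each direction, the highest and lowest means, the largest SD, fixed roles, and hosts with 3 or more entries. Snora35, and entries sharing a host or having several probe sets, were added after their values were seen. The members, lists and rules were chosen with earlier results of these data known. The same-strand condition planned for host genes could not be applied. Same-numbered pools deviated together only weakly over all genes (r = 0.035, 0.089 and 0.045, against -0.102 to 0.068 for pools of different number). Of the protein list, Fbl, Nopchap1 and Toe1 were not analysed here. Alternatives were normalizations, filters on dim genes, a replicate block, variance settings, array weights, probe set means, all probe sets and each pool left out.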

Additional observations from a re-analysis of the deposited data

How the results depend on the processing

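No entry reached an adjusted p of 0.05 in limma under any alternative run. The count of entries at an unadjusted p under 0.05, 11 of 78 with all pools (12.2% of all genes), was 7 with p-values from the fit on all probe sets (10.1% of all genes), 7 of the 57 left without genes under the median level (13.7%), 16 with array weights (14.5%) and 8 to 13 with 1 pool left out (8.66% to 13.7%). With the replicate number as a block (replicate block) it was 17 (13.2% of all genes). With that block Snord73a had an adjusted p of 0.0618 in limma. Over all genes, same-numbered pools deviated together only weakly, and pairing was not examined over the 78 entries. Whether the numbers pair the pools is therefore unknown, and the block is given only as a value. The count of snoRNP and Cajal body protein genes at that p, 1 with all pools, was 2 with array weights, with cyclic loess and with the replicate block, and 1 to 5 with 1 pool left out. The median differences of C/D box entries ran from -0.13 to 0.08, of H/ACA box entries from -0.15 to 0.05 and of Cajal body entries from -0.26 to 0.15 over the 6 fits that omit 1 pool, all changing sign; the C/D median was also 0.00 with array weights, and the Cajal body median was 0.08 without genes under the median level. Over the same 6 fits the median SD ran from 0.46 to 0.56 for C/D box and from 0.39 to 0.42 for H/ACA box entries. With all pools these medians were 0.51 and 0.45. They were 0.51 and 0.45 with a second quantile normalization, 0.54 and 0.46 with median centring, and 0.51 and 0.46 with probe set means. The differences of Snord58b and Snora69 turned to 0.73 and 0.31 with array weights, and those of Snora61, Snord99, Nop56 and Wrap53 to 0.0706, 0.058, 0.0106 and 0.0533. Those of Nop58 and Nhp2 were -0.0012 and -0.0076 with median centring. Averaging probe sets per gene moved Nop56 to -0.35 and Snu13 to 0.06. With 1 pool left out, differences also changed sign for Snord58b (-1.04 to 0.74), Snora69 (-1.14 to 0.25), Snord61 (-1.72 to 0.75), Snord118 (-0.68 to 0.49), Snord13 (-0.43 to 0.56), Snord71 (-0.0037 to 0.39), Snora73b (-0.35 to 0.0232), Scarna2 (-0.26 to 0.15), Scarna10 (-0.0555 to 0.46), Scarna17 (-0.34 to 0.0828), Snora61 (-0.20 to 0.14), Snora44 (-0.43 to 0.17), Snord99 (-0.54 to 0.27), Nop56 (-0.11 to 0.12), Nop58 (-0.0498 to 0.0636), Nhp2 (-0.0508 to 0.12), Coil (-0.0289 to 0.18) and Wrap53 (-0.18 to 0.11). Each is a fit on fewer arrays. Leaving out 1 pool also moved the differences of Gemin2 (-0.56 to -0.23), Rrp9 (0.13 to 0.54), Gar1 (0.0337 to 0.20), Snu13 (0.0628 to 0.25), Nop10 (-0.16 to -0.011), Npm1 (0.0366 to 0.15) and Dkc1 (0.14 to 0.32) by over 1.5 times. The SD was not recomputed with cyclic loess, array weights, the block, other variance settings or all probe sets. No detection calls were used, so dim entries cannot be set apart from background.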
